A study of Mus musculus with 12 samples.

Results

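The Schlafen genes described here are Slfn1, Slfn2, Slfn3, Slfn4, Slfn5, Slfn8 and Slfn9, 7 of the 55401 gene identifiers measured in white blood cells sorted from mouse tumours. They were taken by symbol. The family was brought forward because Slfn4 was among the largest rises between fusion protein and untreated samples, so that comparison is given as a description with no test. The tumours were B16-OVA, a melanoma line that carries ovalbumin as a model antigen, grown for 10 days in mice labelled wild type (WT). Untreated mice received neither agent. The fusion protein group received 20 mcg of a fusion protein on day 10 and a second dose of 10 mcg on day 14, the 20 Gy group received 20 Gy of radiation on day 10, and the combined group received both. Live cells carrying CD45 (white blood cells) and CD11c (dendritic cells and many macrophages) were sorted on day 17, 7 days after treatment. The sources used here do not give the parts of the fusion protein, what control went with it or the age of the mice. The 12 RNA libraries fall into these 4 groups of 3. Nothing in the labels ties a library to a mouse of its own, and p-values therefore measure only the spread between libraries, which may be technical.

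Schlafen proteins are a family named after the German word for sleeping, because the founding members hold back the growth of developing T cells. The short members Slfn1 and Slfn2 consist of the conserved amino-terminal core. Slfn3 and Slfn4 add a linker domain, and Slfn5, Slfn8 and Slfn9 add a helicase-like part at the carboxy end. Several members bind or cut transfer RNA and so slow protein synthesis, and many are induced by type I interferon, the cytokine that switches on antiviral genes. Slfn4 is known as a gene of myeloid cells, where interferon and Toll-like receptor signals induce it.

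All 7 members lie in 1 block of 264 kb on chromosome 11 (82951349 to 83215154, GRCm38, the assembly also called mm10). In the order of the chromosome they are Slfn5 (82951349 to 82964840, plus strand), Slfn9 (82978390 to 82991830, minus), Slfn8 (83002158 to 83020810, minus), Slfn2 (83065112 to 83070678, plus), Slfn1 (83116849 to 83122670, plus), Slfn4 (83175186 to 83190216, plus) and Slfn3 (83191330 to 83215154, plus). The longest complete coding stretch in the annotation has 337 codons in Slfn1 and 378 in Slfn2, 640 in Slfn3 and 602 in Slfn4, and 884, 910 and 910 in Slfn5, Slfn8 and Slfn9. Slfn3 and Slfn4 are 92.7% identical over their aligned coding bases, as are Slfn8 and Slfn9, and the other pairs are 64.4% to 78.2% identical. Exact stretches of 100 bases were rarely shared with the transcripts of another gene. The share was 0.271% of such stretches for Slfn4, 2.92% for Slfn3, 3.38% for Slfn8 and 3.71% for Slfn9, in the last 2 mostly with the pseudogene Slfn10-ps. How the authors treated reads that fit several genes is not given, so values of these members carry that uncertainty.

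The members fell into 2 sets by the sequence just before their transcription starts, taken from RefSeq (GRCm38.p6), which held all 7. Within 250 bases before the start, the core of the interferon-stimulated response element was searched on both strands, as a pair of GAAA with 2 free bases between them. It was present in Slfn5, Slfn8 and Slfn9, and in 2.98% of the 32851 promoters of the table. Windows of 80 bases around that match are shown 5′ to 3′ on the gene's own strand with the matched letters in capitals, at chr11:82951912-82951991, chr11:83020814-83020893 and chr11:82991831-82991910.
Slfn5: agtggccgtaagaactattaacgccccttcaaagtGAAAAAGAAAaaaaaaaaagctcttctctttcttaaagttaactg
Slfn8: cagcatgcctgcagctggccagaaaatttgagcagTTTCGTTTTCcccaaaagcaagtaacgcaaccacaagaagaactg
Slfn9: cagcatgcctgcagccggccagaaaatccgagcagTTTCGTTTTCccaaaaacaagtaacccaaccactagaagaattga
The RefSeq start of Slfn5 lies downstream of the gene's first annotated base given above, so its window falls inside the gene as annotated there, and overlaps an exon of another Slfn5 transcript by 7 bases. The match began 155 bases before that RefSeq start of Slfn5, 48 before the upstream one of 2 annotated starts of Slfn8 and 45 before the start of Slfn9, on the opposite strand in the last 2 genes. Slfn1, Slfn2, Slfn3 and Slfn4 held no match in this window, which says only that these letters are not in it. All 4 instead held the letters ACTTCCTGG, which contain the core that ETS-family factors bind, on the gene's own strand. These letters were chosen after the sequences had been seen, and 0.7% of promoters hold them on either strand. The windows lie at chr11:83116710-83116789, chr11:83065021-83065100, chr11:83191250-83191329 and chr11:83175077-83175156.
Slfn1: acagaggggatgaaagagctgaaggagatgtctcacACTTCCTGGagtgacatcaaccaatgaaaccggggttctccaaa
Slfn2: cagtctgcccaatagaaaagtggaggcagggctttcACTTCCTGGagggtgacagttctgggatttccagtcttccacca
Slfn3: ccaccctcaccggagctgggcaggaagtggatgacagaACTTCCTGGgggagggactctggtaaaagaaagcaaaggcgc
Slfn4: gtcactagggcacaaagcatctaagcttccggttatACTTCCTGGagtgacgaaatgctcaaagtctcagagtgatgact
The match began 74 bases before the start in Slfn1, 55 in Slfn2, 42 in Slfn3 and 73 in Slfn4. The letters TTCNNNGAA of the gamma-activated sequence, searched on both strands, were in none of the 7 windows and in 7.02% of all promoters. The response element core was also found for 12 of 26 genes of a type I interferon list that had a promoter in the table.

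Each library held 14462032 to 23985496 reads in genes. CD45 (Ptprc) was at 30925 to 53839 and CD11c (Itgax) at 2226 to 9497 normalized counts, which are read counts divided by 1 size factor per library, so the sorted markers were present throughout. Libraries also differed in ways the groups do not explain. Of 1754 receptor genes of smell and pheromones, which immune cells do not use, 4.79% to 25.5% had a read in untreated and fusion protein libraries, 13.1% to 79% after 20 Gy and 13.6% to 57.7% in the combined group. Summed melanoma markers were highest in library 3 of every group, at 1302 to 15556 normalized counts against 96.1 to 430 in the other 8 libraries. Neutrophil, monocyte and natural killer cell markers moved with the groups too, and their values stand beside the results they touch. No list of cell markers had a member at 0 in all 12 libraries.

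Between fusion protein and untreated samples, the comparison that selected the family, all members were higher with the fusion protein. Slfn4 had 107.8, 39.9 and 41.4 normalized counts in untreated libraries 1, 2 and 3, and 22961, 1346 and 13883 in those of the fusion protein group. The fusion protein values thus spread 17.1-fold, with library 2 far below the others, and all 3 lay above the untreated range. The fitted log2 fold change was 7.04 ± 0.92 (SE). For the other members it was 3.35 ± 0.41 (Slfn1), 1.80 ± 0.27 (Slfn8), 1.76 ± 0.29 (Slfn5), 1.67 ± 0.28 (Slfn9), 1.49 ± 0.31 (Slfn3) and 1.17 ± 0.40 (Slfn2). In all 7 every fusion protein value lay above every untreated value, which held for 5.94% of the 18274 genes tested. Nothing is read from that count, since this comparison selected the family. All 12 values of each member are drawn in the plot of Schlafen counts by library.

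With the fusion protein the other members were less scattered than Slfn4. Slfn1 had 223, 716 and 340 normalized counts in untreated libraries 1, 2 and 3, and 5441, 3454 and 3098 with the fusion protein. Slfn2, already abundant, had 3250, 3188 and 6046 untreated and 9129, 6820 and 11507 with the fusion protein. It was highest in library 3 of both groups, and its ranges came closest to touching. Slfn3, the lowest of the 7 after Slfn4 in untreated samples, had 73.4, 111 and 124 counts and then 325, 217 and 326. Among the long members Slfn5 went from 2708, 2133 and 2212 to 10765, 9009 and 5152. Slfn8 went from 2002, 2093 and 1155 to 7926, 6329 and 4078, and Slfn9 from 395, 637 and 437 to 2034, 1104 and 1587. With the fusion protein library 3 was the lowest for Slfn1, Slfn5 and Slfn8, and library 2 for Slfn2, Slfn3, Slfn4 and Slfn9.

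**Figure D1:**
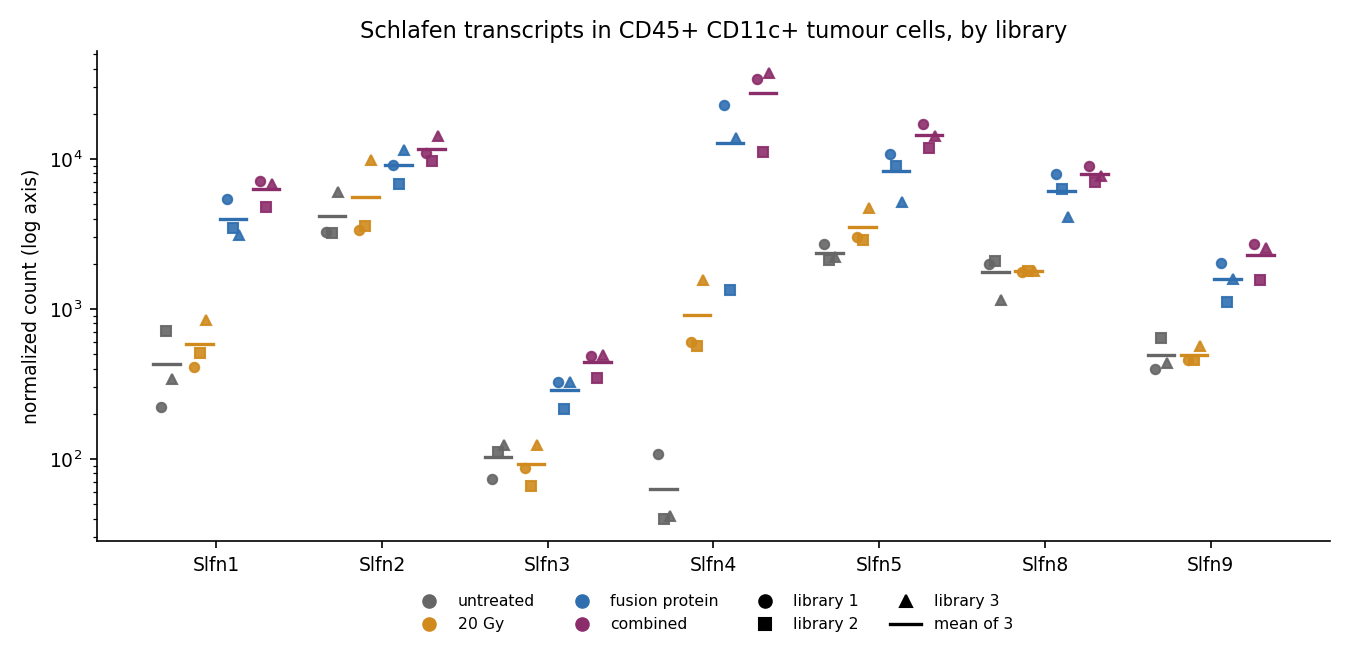
Normalized counts (log axis) of the 7 Schlafen members in each of 12 libraries, coloured by group, with symbols for the library number and a bar at the mean of 3. Slfn4 runs from 39.9 in an untreated library to 37381 in a combined one, and Slfn8 after 20 Gy stays between 1773 and 1794.

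The 3 combined libraries, which received the fusion protein and radiation, and the 3 libraries after 20 Gy alone were not in the comparison that brought the family forward. The members were nevertheless chosen with earlier results of these data known, so the test below may not be wholly independent of that choice. Between combined and 20 Gy samples 6 of the 7 members rose and 0 fell, where 0.843% of all tested genes rose and 0.186% fell. The 6 were Slfn1, Slfn3, Slfn4, Slfn5, Slfn8 and Slfn9, by a log2 fold change of 2.05 to 4.90. Slfn2 had the smallest difference and did not pass in this fit, which does not use the replicate number. In the 6 that rose, all 3 combined values lay above all 3 values after 20 Gy, which held for 8.36% of tested genes. Tests were made with limma on log2 of the normalized count plus 1, with Benjamini-Hochberg adjustment over all 18274 genes and a threshold of 0.05. The median over the members was 2.17, and that over all tested genes −0.02. In bulk samples a change in the number of cells that carry a transcript and a change in transcript per cell cannot be told apart.

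Among the short members, Slfn1, a brake on thymocyte growth, had 409, 506 and 839 normalized counts after 20 Gy and 7138, 4783 and 6846 in the combined group. The groups were far apart, with the lowest combined library 5.7-fold above the highest 20 Gy library. In log2 units the difference was 3.46 ± 0.41 (SE), or 11-fold (95% interval 5.92 to 20.5), with a limma adjusted p of 0.00184. Slfn2, which keeps T cells and monocytes quiescent, had 3362, 3592 and 9772 counts after 20 Gy and 10982, 9660 and 14259 in the combined group. Slfn2 was highest in library 3 of each of the 4 groups, untreated and fusion protein included. Its groups here overlapped only through library 3 of the 20 Gy group. That library also held the highest melanoma marker sum of the series, 15556 counts against 237 and 244 in the other 20 Gy libraries. Its summed type I interferon list was 48649 counts against 24770 and 24713, and its mitochondrial share of reads, 18.6% against 11.8% and 11.6%, was the highest of the 12 libraries. The part of these in Slfn2 was not tested. The log2 fold change of Slfn2 was 1.23 ± 0.40 (limma adjusted p = 0.292), a fold of 2.34 with an interval of 1.27 to 4.32. Without 20 Gy library 3 it was 1.72 (limma adjusted p = 0.027), and without all 4 libraries numbered 3 it was 1.57 (limma adjusted p = 0.0109). With the replicate number as a block Slfn2 was called (limma adjusted p = 0.00472), so its call depends on the model.

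Of the members of intermediate length, Slfn4 had 605, 565 and 1557 normalized counts after 20 Gy and 34271, 11147 and 37381 in the combined group. Library 2 was again the lowest with the fusion protein present, yet it stood 7.16-fold above the highest 20 Gy library. In log2 units this came to 4.90 ± 0.92 (SE), a fold of 29.9 with a wide 95% interval of 7.41 to 121, and a limma adjusted p of 0.0291. Without any 1 of 20 Gy libraries 1 and 2 or combined libraries 1 and 3 the adjusted p of limma was 0.141 to 0.157, and with all 4 libraries numbered 3 left out it was 0.138, with log2 fold changes of 4.59 to 5.06. Slfn3, which is known from T cells and gut epithelium, had 87.1, 66.4 and 124 counts after 20 Gy and 486, 348 and 490 in the combined group. These low but tight values gave a log2 fold change of 2.27 ± 0.31 (limma adjusted p = 0.00403), called in each of 6 fits that left out 1 library.

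The long members rose by log2 fold changes of 2.05 to 2.17. Slfn5, a nuclear member described as a regulator of interferon-induced transcription, had 3019, 2874 and 4692 normalized counts after 20 Gy and 17124, 11861 and 14121 in the combined group (log2 2.05 ± 0.29; limma adjusted p = 0.00475). Slfn8, a relative of human SLFN11 and SLFN13, had 1773, 1790 and 1794 counts after 20 Gy and 9009, 7051 and 7739 in the combined group (log2 2.14 ± 0.27; limma adjusted p = 0.00242). Slfn9, its near copy, had 453, 458 and 568 counts after 20 Gy and 2708, 1554 and 2553 in the combined group (log2 2.17 ± 0.28; limma adjusted p = 0.00324). In each of the 3 the lowest combined library was 2.53-fold to 3.93-fold above the highest 20 Gy library. Slfn5 and Slfn8 were called under all 18 alternatives tried, as were Slfn1 and Slfn3, and Slfn9 under 17, with an adjusted p of 0.054 without the 4 libraries numbered 3.

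**Figure D2:**
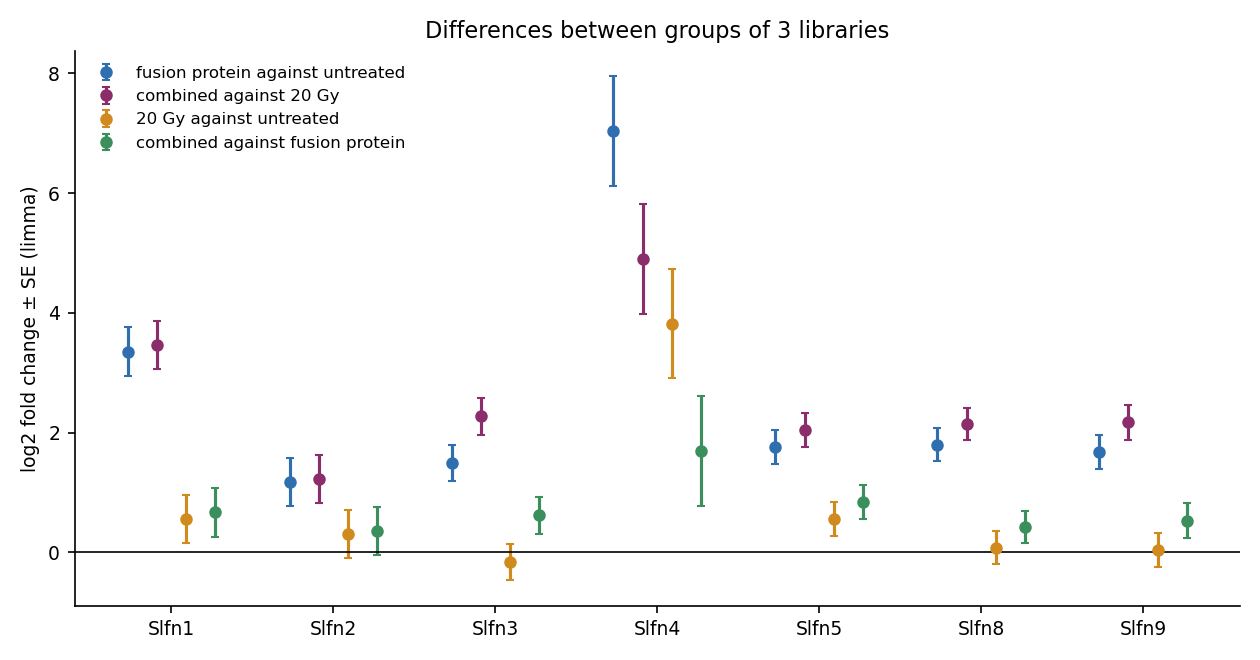
Log2 fold change with its SE (limma, 3 against 3 libraries) of each member in 4 comparisons of groups. Both comparisons that add the fusion protein lie above 0 for all 7 members, and after 20 Gy alone Slfn4 stands at 3.82 while the other members lie between −0.16 and 0.56.

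Markers of other cells differed between combined and 20 Gy samples as well. Beside the counts below, 48.4% of all tested genes were higher in the combined group, and 0.843% rose and 0.186% fell by limma. Summed monocyte markers (10 genes) were 36911 to 48244 normalized counts in the combined group and 17471 to 27267 after 20 Gy. Of these, 7 of 10 were higher and 2 passed, with a median log2 of 0.49. The 2 were Ms4a4c (log2 2.27 ± 0.34 SE, limma adjusted p = 0.00717) and Ly6c2 (3.53 ± 0.55, limma adjusted p = 0.00931). Ly6c2 is a surface antigen of inflammatory monocytes that interferon also induces. Fn1 of the same list went the other way without passing, at −4.20 ± 0.92 (limma adjusted p = 0.0616). Summed natural killer cell markers (9 genes) were 55066 to 90160 and 12505 to 24493, with 9 of 9 higher, of which Gzma, a granule protease, was the only 1 that rose (log2 2.16 ± 0.31; limma adjusted p = 0.00495). Neutrophil markers (14 genes) overlapped, at 2767 to 8346 and 6019 to 7675, and 0 of 14 passed by limma. Conventional dendritic cell markers summed to 16026 to 21494 counts in the combined group and 26692 to 32825 after 20 Gy, with 10 of 12 lower and 1 falling by limma. Red cell markers (7 genes), all lower, summed to 134 to 474 and 2477 to 3497. The sums overlapped for plasmacytoid dendritic cells (8460 to 11580 and 6689 to 12997), T cells (9852 to 26441 and 6778 to 17638) and B and plasma cells (10926 to 25437 and 3545 to 21190), while macrophage sums were 8944 to 14512 and 15021 to 17918. The part of these cells in the Schlafen values was not tested.

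After radiation alone Slfn4 stood apart from the other members in size, without passing in the reported fit, which does not use the replicate number. By limma 0 of the 7 members passed between 20 Gy and untreated samples, with 1 at an unadjusted p under 0.05. Of all 18274 genes 0% passed by limma, with 1231 at an unadjusted p under 0.05, while DESeq2 called 38 higher and 4 lower. This comparison shares the untreated libraries with the one that selected the family. The 20 Gy values of Slfn4, 605, 565 and 1557, all lay above the untreated 107.8, 39.9 and 41.4, and the lowest was 5.24-fold above the highest untreated one. The fit gave a log2 difference of 3.82 ± 0.92 (SE; limma adjusted p = 0.477), a fold of 14.1 with an interval of 3.5 to 57.1. With the replicate number as a block the limma adjusted p was 0.0438, DESeq2 gave 0.00282, and the quasi-likelihood test of edgeR did not call it. Residuals of libraries with the same number correlated at 0.156 to 0.496 in this comparison, which counts as paired here. The call of Slfn4 therefore depends on the model. Slfn5 was the other member whose ranges did not overlap, with a log2 fold change of 0.56 ± 0.29 (limma adjusted p = 0.722). Ranges were separate and higher after 20 Gy in 6.73% of tested genes.

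The other members gave log2 fold changes of 0.56 (Slfn1), 0.30 (Slfn2), 0.08 (Slfn8), 0.03 (Slfn9) and −0.16 (Slfn3) between 20 Gy and untreated samples. For Slfn8 the 95% interval ran from 0.7-fold to 1.59-fold, for Slfn9 from 0.664-fold to 1.58-fold and for Slfn3 from 0.559-fold to 1.43-fold. Scaled by TMM, which lowered the median of all genes in this comparison from 0.04 to −0.08, Slfn8 and Slfn9 were at −0.04 and −0.08. Slfn3, the closest relative of Slfn4 in sequence, had overlapping ranges of 66.4 to 124 after 20 Gy and 73.4 to 124 untreated, and the difference between the 2 genes was not tested.

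Several marker groups moved with Slfn4 after radiation. Summed neutrophil markers were 3409, 354 and 923 normalized counts in untreated libraries 1, 2 and 3, and 7675, 6019 and 6741 after 20 Gy. All 14 were higher, by a median log2 of 3.50, and 0 passed by limma. In the same fit 53.3% of all tested genes were higher and 0% passed, so the lack of calls is not particular to these markers. Within the untreated group Slfn4 was also highest in library 1, and with the fusion protein it was lowest in library 2, where the neutrophil sum was 666 against 6142 and 2228 in libraries 1 and 3. In the combined group library 2 was lowest for both, with a neutrophil sum of 2767 against 8346 and 7643 in libraries 1 and 3. After 20 Gy library 2 was lowest for both too. In the combined and the 20 Gy group alike Slfn4 was highest in library 3, whereas the neutrophil sum was highest in library 1. The summed type I interferon list was 24770, 24713 and 48649 counts in 20 Gy libraries 1, 2 and 3. It was 24880, 21232 and 23447 untreated, 190457, 110110 and 152783 with the fusion protein, and 249266, 159104 and 262798 combined. In each of the 4 groups these sums ranked the libraries as Slfn4 did, though 20 Gy libraries 1 and 2 were nearly level. With 3 libraries a group nothing is read from that order. The 14 markers differed widely in level. Ly6g, a surface marker of mouse neutrophils, was at 0 to 16.4 counts in any library. S100a8, among those of smallest p, was at 0 to 234 counts untreated and 476 to 733 after 20 Gy. Summed macrophage markers were 4843 to 16097 counts untreated and 15021 to 17918 after 20 Gy, overlapping, and summed red cell markers 7.49 to 922 and 2477 to 3497. The part of these cells, or of interferon, in the Slfn4 values was not tested.

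Between combined and fusion protein samples, which differ by the radiation, all 7 members were higher, by log2 fold changes of 0.36 (Slfn2) to 1.69 (Slfn4), and 0 passed by limma (adjusted p = 0.9997 for each, 1 at an unadjusted p under 0.05). Of all 18274 genes 0% passed by limma, with 534 at an unadjusted p under 0.05, and edgeR and DESeq2 also called 0 members. This comparison shares the fusion protein libraries with the one that selected the family. Ranges were separate in Slfn3 and Slfn5, as in 4.48% of tested genes. For Slfn5 the values were 10765, 9009 and 5152 with the fusion protein and 17124, 11861 and 14121 combined, a 1.79-fold difference (95% interval 1.16 to 2.76). For Slfn4 the interval, 0.797-fold to 13-fold, covered both no difference and a large one, and its log2 estimate of 1.69 was 0.44 without fusion protein library 2, 2.49 without fusion protein library 1 and 1.12 with edgeR or DESeq2. With the replicate number as a block the limma adjusted p of the members was 0.374 to 0.595, and 0 passed, with 1880 of all genes at an unadjusted p under 0.05.

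The difference the fusion protein made was then compared with and without 20 Gy. No member passed this interaction test (limma, 0 of 7, 0 at an unadjusted p under 0.05, and 0 of 18274 genes), which draws in part on the comparison that selected the family. Slfn4 had the estimate farthest from 0, −2.14 ± 1.30 on the log2 scale (95% interval −4.98 to 0.71; limma adjusted p = 0.9999). That estimate was −3.38 without fusion protein library 2, −1.33 without fusion protein library 1 and −1.32 without the 4 libraries numbered 3. The other 6 members lay between 0.05 and 0.78. Against untreated samples, with which the family was selected, the combined group was higher by a log2 of 8.72 ± 0.92 for Slfn4, 4.02 ± 0.41 for Slfn1 and 1.53 to 2.60 for the other 5. Ranges were separate in all 7, as in 10.3% of tested genes, and nothing is read from that count.

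The make-up of the family's transcripts was compared per kilobase of exon. Untreated, the order of mean levels was Slfn2 (2501 ± 981 normalized counts per kb, SD, n = 3), Slfn8 (428 ± 127), Slfn5 (372 ± 49.3), Slfn1 (229 ± 138), Slfn9 (82.1 ± 21.6), Slfn3 (30.2 ± 7.73) and Slfn4 (15.9 ± 9.79). Neighbours in that order whose means lay within their combined SDs were Slfn8 and Slfn5, Slfn5 and Slfn1, Slfn1 and Slfn9, and Slfn3 and Slfn4. In the combined group the order was Slfn2 (6991 ± 1423), Slfn4 (6963 ± 3616), Slfn1 (3356 ± 689), Slfn5 (2271 ± 417), Slfn8 (1939 ± 243), Slfn9 (381 ± 105) and Slfn3 (129 ± 23.7). There neighbours among the first 5 lay within their combined SDs, whereas Slfn9 lay apart from Slfn8 and Slfn3 apart from Slfn9.

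Slfn4 went from the last place of the family to a level like that of its most abundant member. Its share of the summed level per kb was 0.876%, 0.305% and 0.229% in untreated libraries 1, 2 and 3 and 4.48%, 4% and 4.89% after 20 Gy. With the fusion protein it was 31.7%, 3.57% and 24.6%, and in the combined group 35.2%, 18.6% and 35.8%. The 20 Gy shares were close together and apart from the untreated ones, whereas fusion protein library 2 fell below the whole 20 Gy range. Slfn1 took 3.86% to 11.7% of the family untreated and 13.9% to 16.9% combined, and Slfn3 0.454% to 0.987% in any library. The family's summed level was 3105 to 4568 normalized counts per kb untreated, 3405 to 8028 after 20 Gy, 9511 to 18272 with the fusion protein and 15145 to 26368 combined. The stacked plot of shares by library shows the same values.

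**Figure D3:**
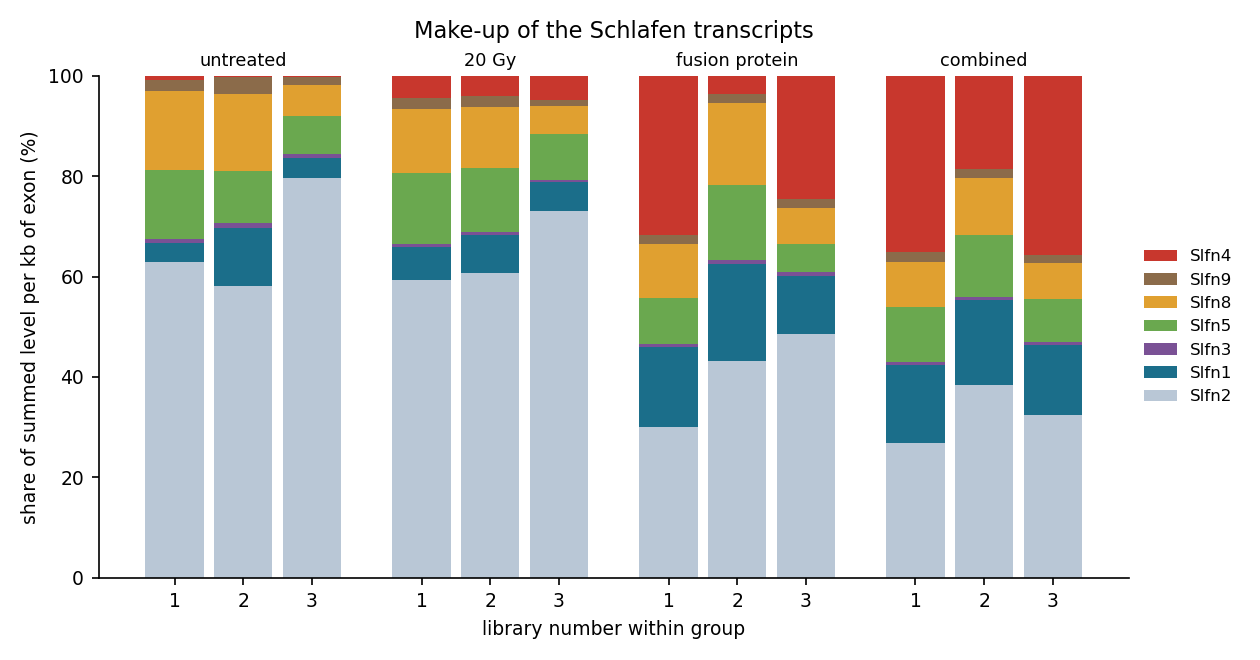
Share of each member in the summed Schlafen level per kilobase of exon (%), 1 bar per library, grouped by treatment. Slfn4, at the top of each bar, grows from at most 0.876% untreated to 18.6% to 35.8% in the combined group, and fusion protein library 2 stays at 3.57%.

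The genes around the block were read in the same comparison. Within 250 kb on either side, 13 protein-coding genes outside the Schlafen family were tested, and 0 of them passed between combined and 20 Gy samples by limma, with a median log2 of −0.22. With 0.843% of all tested genes higher and 0.186% lower, a count of 0 among 13 is not particular to these neighbours. Their log2 fold changes lay between −1.87 and 0.32, among them Ap2b1, a subunit of the clathrin adaptor, at −0.12, Lig3, a DNA ligase, at 0.07 and the muscle chaperone gene Unc45b at −1.87. The plot of log2 fold change against distance from Slfn4 shows the members above these neighbours.

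**Figure D4:**
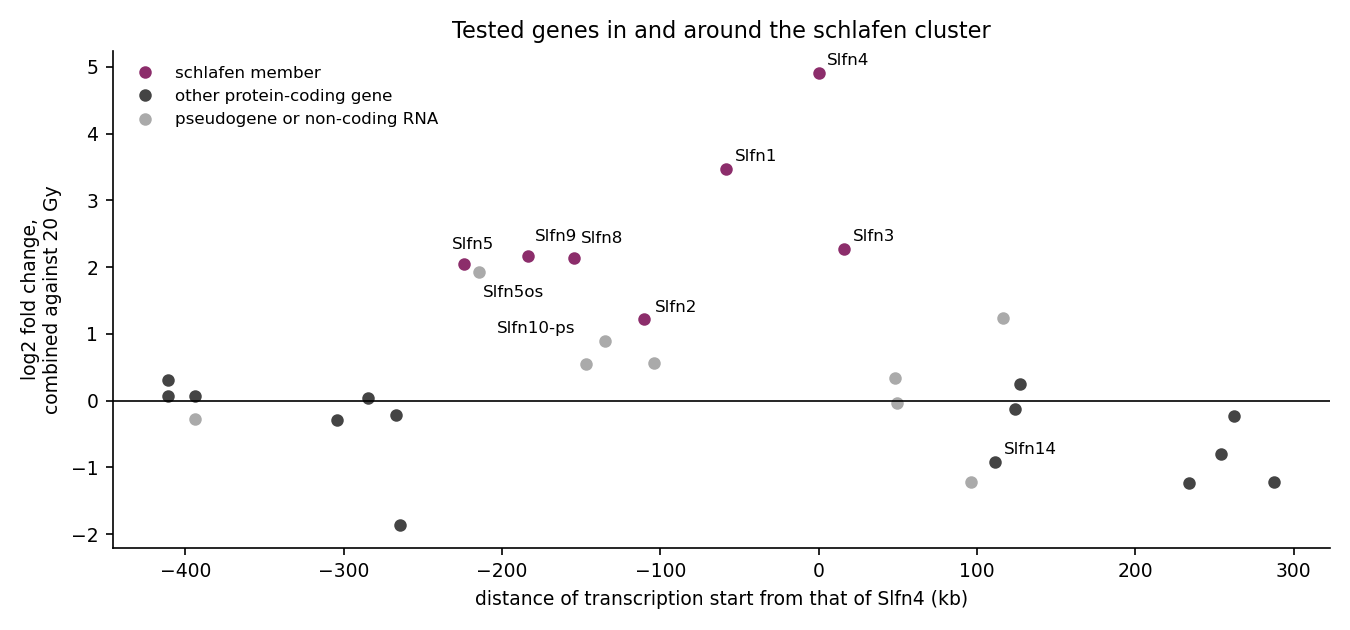
Log2 fold change between combined and 20 Gy samples for each tested gene, against the distance (kb) of its transcription start from that of Slfn4. The 7 members lie between 1.23 and 4.90, and other protein-coding genes within 250 kb of the block, Slfn14 included, at or below 0.32.

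Annotated Schlafen genes outside the 7 did not pass. Slfn10-ps, the pseudogene between Slfn8 and Slfn2, had 204, 224 and 433 normalized counts after 20 Gy and 363, 444 and 781 in the combined group, which overlapped (log2 0.89 ± 0.37; limma adjusted p = 0.489). Slfn5os, an RNA annotated antisense to Slfn5, had 13.2, 18.2 and 9.16 counts and 67.4, 44 and 48.3 (log2 1.93 ± 0.48; limma adjusted p = 0.109). Whether reads were counted by strand is not given, so reads of Slfn5 and Slfn5os cannot be told apart. Slfn14, known from platelets and red cell precursors, reached 10 counts in 5 libraries, with 38.7 and 16.1 in 20 Gy libraries 1 and 2, where 79% and 59% of the smell and pheromone receptor genes also had a read. Slfnl1, a more distant relative on chromosome 4 (120532231 to 120536661), was too low to be tested, at 6.24 to 12.4 counts untreated, 3.93 to 9.68 after 20 Gy, 1.01 to 2.2 with the fusion protein and 0 to 0.899 combined. Its fusion protein and combined values all lay below those of the other 2 groups. Nothing is read from that at counts this near 0, and the share of all genes with that pattern was not counted.

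Interferon-induced genes rose in the same comparison, combined against 20 Gy, in which 0.843% of all tested genes rose and 0.186% fell. The type I interferon list was chosen with earlier results of these data known. Of 35 tested members of the type I interferon list, which holds no Schlafen gene, 31 rose and 0 fell between combined and 20 Gy samples, with a median log2 of 2.98. The count was 20 without 20 Gy library 2, combined library 1 or combined library 3. Ifit3b, an antiviral RNA-binding protein gene, rose by 4.47 ± 0.34, and Oas3, a sensor of double-stranded RNA, by 3.18 ± 0.28 on the log2 scale (SE; limma adjusted p = 0.000317 and 0.00046). Between 20 Gy and untreated samples 0 of 35 passed and 31 were higher (median 0.46), where 0% of all tested genes passed and 53.3% were higher. Siglec1, a macrophage receptor, at 1.37 and Ifi27l2a at 0.78 were among those of smallest p. Of 16 interferon signalling genes 3 rose in the combined group against 20 Gy (median 0.23). Among them were Stat2, a transcription factor activated by the type I interferon receptor (2.01 ± 0.38; limma adjusted p = 0.031), and its DNA-binding partner Irf9 (0.79 ± 0.16; limma adjusted p = 0.0411).

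Lists of the processes in which Schlafen proteins are known to act were counted too, against 0.843% higher and 0.186% lower among all tested genes, so that few or no calls say nothing particular about them. Of 14 genes of tRNA cutting and translation arrest 1 rose between combined and 20 Gy samples, Eif2ak2, the kinase PKR, which the interferon list also holds (log2 1.77 ± 0.26; limma adjusted p = 0.00569). The list's median was 0.12. Of 11 quiescence genes 0 passed by limma (median −0.14), with Cdkn1b, an inhibitor of the cell cycle, at −0.39.

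Likeness between profiles was measured as the root mean square difference of log2(count + 1) over the 12 libraries, each gene centred on its own mean, among 14338 other named genes. It is given as a description, and all profiles share the same libraries and their depth. Profiles were not scaled, so the difference also grows with the size of a gene's changes. Slfn3 and Slfn9 were the 2 members most alike, at 0.24 log2 units, although they differ in coding length and are not neighbours. Slfn5 and Slfn8 followed at 0.34, with Slfn8 and Slfn9 at 0.34, and every pair with Slfn4 differed by 2.07 or more. The genes nearest to Slfn8 were Ddx58 (RIG-I, a viral RNA sensor, 0.14), Ifi209, Phf11c, Ifi203 and Mitd1, all within 0.23. Those nearest to Slfn1 were Oas3 (0.34), Irf7, Usp18, Trim30c and Ifi27l2a, within 0.46, of which 4 are in the interferon list. Slfn2 was nearest to Trim25 (0.13), Sp140, Tspo, Tmem184b and Acadl, none of them in that list.

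Slfn4 had no gene so close, but it was the member with the largest changes, and the measure grows with their size. Its nearest profile was that of Fabp3, a fatty acid-binding protein gene, at 0.96 log2 units, followed by Ifi203-ps (1.39), Pde7b (1.45), Adgrb1 (1.46) and C4b (1.48). Fabp3 averaged 0.499 normalized counts untreated, 7.05 after 20 Gy, 136 with the fusion protein and 213 combined. C4b, a complement component, averaged 15.3, 112, 445 and 829 in the same order. None of the 5 is in the interferon list. Within each of the 4 groups the sums of that list ranked the 3 libraries as Slfn4 did. Nothing is read from either about likeness to the list.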

How the data were processed

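The authors, per the submitters' processing notes, used FastQC, Trimmomatic, STAR, featureCounts and DESeq2 with the mouse build mm10; the sources used here give no versions or settings. The signal deposited by the authors is the read count per gene over 1 DESeq2 size factor per library. Dividing each column by its smallest value above 0 gave whole reads within 0.001 in 100% of values. Symbols and coordinates came from GENCODE vM21, which matched 55141 identifiers (99.5%), and promoters from RefSeq.

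The filter kept 18274 genes, all 7 members included, that reached 10 normalized counts in 3 or more libraries. Log2 of the count plus 1 was fitted with limma 3.58.1 in R 4.3.3, all 12 libraries in 4 groups, variance trend on, two-sided, 8 residual and 3.31 prior degrees of freedom. Folds are on that scale. The members and gene lists were chosen with earlier results of these data known. Named genes were the 7 members and other Schlafen genes, up to 4 list members of smallest p, protein-coding neighbours within 250 kb, and the 5 nearest profiles of a member. Ly6g, Ap2b1, Lig3 and Unc45b were picked among these or the markers after their values were seen. The non-coding neighbour AA465934 was added in the same way. The cell markers were those of neutrophils, monocytes, macrophages, conventional and plasmacytoid dendritic cells, T, natural killer, B, red and melanoma cells.

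Alternatives included edgeR 4.0.16 and DESeq2 1.42.0 on recovered reads. The steps were tested on simulated counts. Residuals of libraries with the same number correlated at 0.156 to 0.496 between 20 Gy and untreated and 0.41 to 0.484 between combined and fusion protein samples. They correlated at 0.473 to 0.621 between fusion protein and untreated and 0.334 to 0.389 between combined and untreated samples. All of these count as paired here. Between combined and 20 Gy samples the values were 0.505 and 0.382 for numbers 1 and 3, above those with other numbers. For number 2 the value was 0.0095, below 0.354 with another number. What the number stands for is not given. Results for some genes of these lists are not reported here.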

Additional observations from a re-analysis of the deposited data

How the results depend on the processing

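Between combined and 20 Gy samples the number of members called was 6 in the reported fit and 5 to 7 under the alternatives: other pseudocounts (5 and 0.5), filters, the 6 compared libraries alone, no variance trend, TMM scaling, a covariate for receptor gene reads, the replicate block, the 4 libraries numbered 3 left out, edgeR, DESeq2, and each library left out. Slfn4 had a limma adjusted p of 0.0667 without the variance trend. Of all genes 154 were called higher and 34 lower, against 516 and 318 with the replicate block, 336 and 213 with DESeq2, and 67 to 177 and 8 to 24 with 1 library left out. By the check made here libraries numbered 1 and 3 paired between these groups and those numbered 2 did not. Whether the fit should use the replicate number therefore cannot be told here. The block gave Slfn2 a limma adjusted p of 0.00472, so that all 7 members were called. Between 20 Gy and untreated samples 1 member, Slfn4, was called with the replicate block and 1 with DESeq2, against 0, and 0 with any library left out. Of all genes in that comparison the replicate block called 57 higher and 13 lower and DESeq2 38 and 4, against 0 and 0. The block changed no other call of a member among the 4 tested comparisons.

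Estimates near 0 changed sign. Between 20 Gy and untreated samples Slfn8 was at −0.20 without the 4 libraries numbered 3 and −0.0391 with TMM scaling. Slfn9 was at −0.14 without those libraries, −0.0840 with TMM scaling and −0.0863 with the receptor covariate. With 1 library left out Slfn2 ranged from −0.19 to 0.61, Slfn3 from −0.40 to 0.0512, Slfn8 from −0.20 to 0.23 and Slfn9 from −0.10 to 0.24. In the interaction the receptor covariate gave −0.0083 for Slfn1 and −0.12 for Slfn2, and edgeR gave −0.0757 and DESeq2 −0.0758 for Slfn2. With 1 library left out Slfn4 ranged from −3.38 to −1.33, Slfn1 from −0.35 to 0.49, Slfn2 from −0.25 to 0.55 and Slfn5 from −0.0284 to 0.51. Between combined and fusion protein samples Slfn4 ranged from 0.44 to 2.49 with 1 library left out. The cause was not tested. The number of interferon list members called between combined and 20 Gy samples was 20 to 31 with 1 library left out, against 31. TMM scaling moved the median of all genes from −0.02 to 0.13 in that comparison. With the longest transcript as length the mean share of Slfn4 was 0.465% untreated, 4.42% after 20 Gy, 19.8% with the fusion protein and 29.6% combined. With the union of exons it was 0.470%, 4.46%, 19.9% and 29.8%. Leaving out 1 library cannot move a mean of 3 by as much as their SD, so that check decides nothing. The fusion protein mean rests on shares of 31.7%, 3.57% and 24.6%, and thus depends on library 2. With 3 libraries a group the precision follows the spread, with an SE of 0.92 for Slfn4 and 0.27 for Slfn8 on the log2 scale.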
